A study of Mus musculus with 12 samples.

Results

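The genes described here encode 36 plasma proteins of complement, clotting and clot breakdown, with their inhibitors, most of which hepatocytes secrete into the blood. They were chosen by symbol from the entries of the deposited count tables, and 36 of 36 were found among 23574 entries and had enough counts to be tested. RNA came from livers of wild type C57BL/6 mice injected with concanavalin A (Con A) and sampled 6 h or 12 h later. Con A is a lectin of jack beans; in mice it drives T cells into an attack on the liver. The 4 groups hold 3 libraries each. Those named Con A 6 h and Con A 12 h had no mesenchymal stem cells (MSC); those named Con A + MSC 6 h and Con A + MSC 12 h had. No group without Con A was analysed here, so every comparison sets injured livers against injured livers, and time after Con A cannot be told apart from time of day. The series text speaks of hepatocyte RNA, whereas the sample labels name liver tissue. The labels do not say whether the libraries of a group came from separate mice, so p-values measure the spread between these libraries, which may be technical.

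Complement is a chain of plasma proteases and pore-forming proteins. Recognition of sugars or antibodies (lectin and classical pathways) or spontaneous C3 turnover (alternative pathway) leads to cleavage of C3 and C5. The proteins C6 to C9 then build a membrane pore. Clotting runs through proteases that activate each other on surfaces until thrombin (from F2) turns fibrinogen into fibrin. Antithrombin, heparin cofactor II and protein C brake it and plasmin (from Plg) dissolves the clot. The liver makes most of these proteins, and several of them, fibrinogen and C3 among them, are acute-phase proteins whose synthesis rises in inflammation.

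From 6 h to 12 h after Con A alone, 22 of the 36 genes fell and none rose (edgeR quasi-likelihood test, Benjamini-Hochberg adjusted p below 0.05 over 14275 genes tested). That is 61.1% of the group, all downward, where 24.8% of all genes tested fell, 24.4% rose and 49.2% passed in either direction. The largest falls were in the factor XIII carrier subunit F13b, heparin cofactor II (Serpind1), prekallikrein (Klkb1) and factor V (F5), each at 12 h between 0.173 and 0.317 of its 6 h level. The 3 fibrinogen chains and C3 did not pass the test and had fitted levels of 0.888 to 1.04 of those at 6 h. With MSC, Serpind1, F13b and Klkb1 were higher at 12 h than without MSC (3.17-fold, 2.93-fold and 2.76-fold), and no gene of the group was lower. Those 3 of 36 make 8.33%, beside 4.08% of all genes tested called in either direction, 2.29% called higher and 1.79% called lower. At 6 h none of the 36 was called between livers with and without MSC.

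The upstream sequences of the 3 genes that differed with MSC at 12 h are shown beside those of Fgb and Fgg, 2 abundant members that passed no test. Each is the stretch of 250 bases before the RefSeq transcript start (assembly GRCm38.p6), written 5′ to 3′ on the gene's own strand. Capitals mark CTGGGAA, the core of the type II interleukin-6 element described in acute-phase genes. Serpind1 lies at chr16:17331121-17331370, plus strand. Klkb1 lies at chr8:45294836-45295085, minus strand. F13b lies at chr1:139501457-139501706, plus strand. Fgb lies at chr3:83049864-83050113, minus strand. Fgg lies at chr3:83007474-83007723, plus strand.
Serpind1: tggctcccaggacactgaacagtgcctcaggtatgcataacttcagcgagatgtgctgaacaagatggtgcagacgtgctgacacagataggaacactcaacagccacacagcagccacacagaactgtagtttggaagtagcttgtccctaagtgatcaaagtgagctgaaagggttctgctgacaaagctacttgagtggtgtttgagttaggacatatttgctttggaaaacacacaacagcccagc
Klkb1: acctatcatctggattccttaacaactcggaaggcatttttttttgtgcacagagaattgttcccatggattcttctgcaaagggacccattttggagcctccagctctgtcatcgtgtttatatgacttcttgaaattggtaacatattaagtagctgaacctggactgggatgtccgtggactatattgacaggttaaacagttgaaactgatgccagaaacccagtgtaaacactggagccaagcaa
F13b: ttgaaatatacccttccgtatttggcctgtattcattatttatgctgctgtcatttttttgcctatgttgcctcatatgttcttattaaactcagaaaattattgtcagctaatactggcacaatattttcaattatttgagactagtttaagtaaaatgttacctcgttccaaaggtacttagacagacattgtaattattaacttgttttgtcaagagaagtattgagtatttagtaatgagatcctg
Fgb: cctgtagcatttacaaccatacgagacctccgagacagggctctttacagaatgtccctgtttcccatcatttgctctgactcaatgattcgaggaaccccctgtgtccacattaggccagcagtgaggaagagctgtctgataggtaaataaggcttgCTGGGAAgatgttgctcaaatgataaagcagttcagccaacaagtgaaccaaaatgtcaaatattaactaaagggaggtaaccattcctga
Fgg: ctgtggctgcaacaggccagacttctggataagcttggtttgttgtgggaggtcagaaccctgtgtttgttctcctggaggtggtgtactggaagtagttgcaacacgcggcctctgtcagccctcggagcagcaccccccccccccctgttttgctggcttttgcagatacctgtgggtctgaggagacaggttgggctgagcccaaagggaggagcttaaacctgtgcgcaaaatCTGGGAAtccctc
CTGGGAA stood 91 bases before the start of Fgb and 13 before that of Fgg. It was not found in the stretches of the 3 genes that differed with MSC. That absence is not read as a difference between the genes, because few of the members' windows described below hold CTGGGAA. Among the patterns searched, Serpind1, F13b and Klkb1 hold only the looser C/EBP pattern TTNNGNAA. It lies 25 bases before the start for Serpind1, 18 and 102 for F13b and 177 and 236 for Klkb1. Fgb holds TTNNGNAA as well, 80 and 206 bases before its start, and the STAT pattern TTCNNNGAA at 162. A further TTNNGNAA match of Fgb begins 7 bases before the start and runs past the end of the stretch shown.

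RefSeq windows of 300 bases (250 before to 50 after the start) were matched for 27 of the 36 genes by symbol, in 28 windows, and were searched on both strands beside all 32851 windows of the table. The STAT pattern TTCNNNGAA was in 21.4% of the members' windows and in 8.3% of all, TTNNGNAA in 57.1% against 40.7%, and CTGGGAA in 17.9% against 11.1%. The members with CTGGGAA were Masp2, C6, F9, Fgb and Fgg. Of these, Masp2 and F9 fell with time without MSC, and C6 and F9 fell with MSC. C3 and Fga, which like Fgb and Fgg passed no test, had no match. The NF-kB pattern (GGGA, any 4 bases, CC) was in 17.9% against 20.7%, and the HNF4 letters CAAAGTCC were in none of the members' windows and in 1.42% of all. CTGGGAA can overlap TTNNGNAA or TTCNNNGAA by a few bases, and a match is a run of letters, not a site shown to be bound.

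Library totals ran from 29688137 to 36131512 counts, so that 3 counts correspond to 0.0657 to 0.119 CPM (counts per 1000000 counts of the library, scaled with edgeR's TMM factors here and below). The libraries of Con A 12 h stood apart from each other in the share of counts on mitochondrially encoded genes, with 5.59% in replicate 1, 17.3% in replicate 2 and 24.9% in replicate 3, against 6.71% to 12.1% in the other 9 libraries. Leaving out replicates 2 and 3, a setting added after the data had been seen, keeps 1 library at Con A 12 h. For that fit only effect sizes are given. The median log2 change of the group was then -0.56 for time without MSC and 0.22 for MSC at 12 h. With all libraries these medians were -0.56 and 0.25. TMM factors were 0.815 to 0.972 at 6 h and 0.911 to 1.29 at 12 h. Under scaling by total counts the median log2 change of all genes tested was 0.26 rather than 0.00 for MSC at 12 h, 0.28 rather than 0.02 for time without MSC and 0.59 rather than 0.06 for time with MSC.

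Hepatocyte markers dominated in each library: 11 hepatocyte marker genes summed to between 34739 and 121183 CPM, 10 markers of sinusoidal endothelium to between 37.6 and 155 CPM and 7 Kupffer cell markers to between 4.00 and 63.9 CPM. The hepatocyte markers summed to 98258 to 121183 CPM at Con A 6 h, 93243 to 95866 at Con A + MSC 6 h, 34739 to 56221 at Con A 12 h and 47308 to 58018 at Con A + MSC 12 h. Of the 11, 8 fell with time without MSC (beside 24.8% of all genes tested) and 8 with MSC (beside 20.2%). In both treatments 7 of them were called. None of the 11 passed the test for MSC at either time. In whole-liver RNA, fewer hepatocytes and less of an RNA in each hepatocyte cannot be told apart.

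The 36 genes together took up between 5.05% and 9.80% of all counts of a library. Fibrinogen alone (Fga, Fgb and Fgg) made up 55.5% to 67.6% of the counts of the group, and C3 13.8% to 18.4%. Levels per length are counts per kilobase of exon, scaled so that all genes with a known length sum to 1000000 in each library. Averaged over the 12 libraries, the order was led by Fga (12012), Fgg (11705), Fgb (7595) and C3 (4404). Behind them came Cfb (1218), Cpb2 (1162), Kng1 (1086) and Plg (896), and the lowest were Pros1 (30.0), Masp1 (26.7) and Klkb1 (26.0). The ranges over libraries of Fga (7612 to 22938) and Fgg (8181 to 19092) cover each other, as do those of Cfb (749 to 1753) and Cpb2 (850 to 1828). Klkb1, with the lowest mean level of the group per length, is also among the genes that varied most with time and MSC. Its rank depends on the length used, which merges the exons of all annotated transcripts (5249 bases for Klkb1). By mean CPM, F7 (41.1) and Pros1 (55.7) lay below Klkb1 (65.6).

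**Figure D1:**
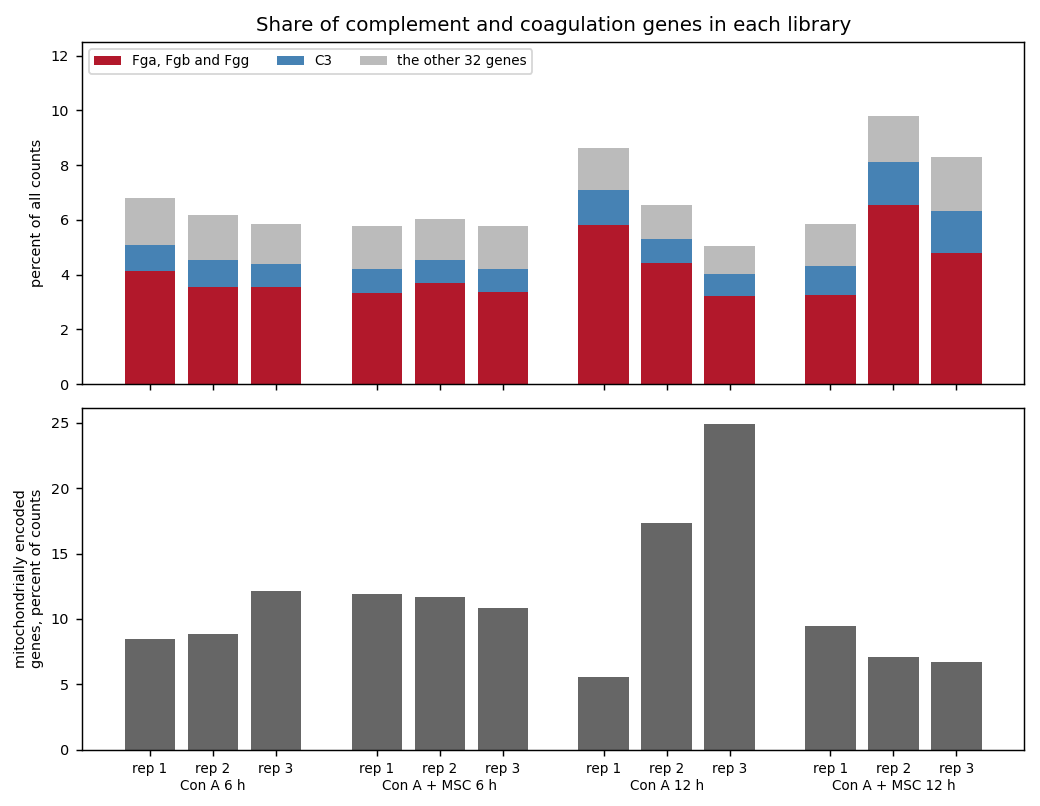
Share of all counts taken by fibrinogen (Fga, Fgb, Fgg), C3 and the other 32 genes in each of the 12 libraries (upper panel, percent), and share of counts on mitochondrially encoded genes (lower panel, percent). The group's share ran from 5.05% in Con A 12 h replicate 3, which has the highest mitochondrial share (24.9%), to 9.80% in Con A + MSC 12 h replicate 2.

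In the lectin pathway, the mannose-binding lectin Mbl2 and the protease Masp2 fell with time without MSC, whereas Mbl1 and Masp1 did not pass in any comparison. Mbl2, which binds microbial sugars, measured 378, 268 and 330 CPM at Con A 6 h and 130, 194 and 128 at Con A 12 h. With MSC it measured 229, 206 and 264 CPM at 6 h and 160, 164 and 264 at 12 h. The 3 libraries of Con A 12 h lay below the 3 of Con A 6 h, and with MSC the times overlapped. The log2 change with time was -1.11 (SE 0.24, edgeR adjusted p = 0.00225) without MSC and -0.25 (SE 0.24, adjusted p = 0.42) with MSC. Masp2, which cleaves C4 and C2, changed by -0.62 (SE 0.15, edgeR adjusted p = 0.00425) without MSC. Masp2 shares 54.9% of its exon bases with Tardbp on the opposite strand in the GENCODE M21 annotation. Whether reads were counted by strand is not stated in the labels, so its values may include Tardbp reads. Mbl1 held between 105 and 151 CPM over the 12 libraries, and Masp1 between 95.4 and 150.

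Of C2, C3, C4b, Cfb and Cfi, which form, feed or inactivate the C3-cleaving enzymes, 4 fell with time without MSC, C3 being the exception. None passed with MSC. Of all genes tested 24.8% were called lower with time without MSC and 20.2% with MSC. C3, the protein on which the pathways converge, measured 11344, 10018 and 10232 CPM at Con A 6 h and 10171, 9177 and 8705 at Con A 12 h. In the MSC groups the values were 11047, 9593 and 9423 CPM at 6 h and 8487, 12171 and 12474 at 12 h. The groups overlapped in each comparison. Cfb, the protease of the alternative pathway, measured 2037, 1987 and 1886 CPM at Con A 6 h and 1245, 1150 and 1305 at Con A 12 h. The values with MSC were 1834, 1585 and 1705 CPM at 6 h and 1310, 1358 and 1737 at 12 h. Its libraries at 12 h without MSC lay below those at 6 h (log2 change -0.68, SE 0.17, edgeR adjusted p = 0.00605) and also below those at 12 h with MSC, a difference that did not pass (0.25, SE 0.17, adjusted p = 0.412). Cfi, the protease that inactivates C3b and C4b, changed by -0.96 (edgeR adjusted p = 0.00635), C2 by -0.86 (adjusted p = 0.00471) and C4b by -0.52 (adjusted p = 0.0464) with time without MSC. C4b is nearly identical to C4a, for which no entry of its own was found. A read-through gene (Gm20547), with 0 counts in each library, covers 79.5% of the exon bases of Cfb. Together with Zbtb12 on the opposite strand, which held 10 to 82 counts, it covers 46.9% of those of C2. The sharing of reads in these genes is therefore uncertain.

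Among the terminal proteins, Hc (C5), C8b and C9 fell with time without MSC, and Hc, C6, C8g and C9 fell with MSC. C8b, the beta chain of C8, measured 412, 311 and 299 CPM at Con A 6 h and 153, 158 and 143 at Con A 12 h. Livers given MSC had 428, 269 and 386 CPM at 6 h and 199, 257 and 369 at 12 h. Without MSC the times were apart (log2 change -1.17, SE 0.24, edgeR adjusted p = 0.00172), with MSC they overlapped. At 12 h the libraries with MSC lay above those without, but the difference did not pass (0.86, SE 0.24, adjusted p = 0.0629). The neighbouring gene C8a (11.1 kb away on chromosome 4 in GRCm38), which encodes the alpha chain, changed by -0.35 (SE 0.18, edgeR adjusted p = 0.123) without MSC. C6, which joins C5b to start the pore, measured 178, 175 and 169 CPM at Con A 6 h and 168, 306 and 200 at Con A 12 h. Its level with MSC was 314, 224 and 256 CPM at 6 h and 178, 80.0 and 132 at 12 h. At 6 h the MSC libraries lay above the others without passing (0.60, SE 0.28, edgeR adjusted p = 0.456), and at 12 h the groups overlapped (-0.79, SE 0.28, adjusted p = 0.124). The fall with time with MSC passed (-1.03, SE 0.28, edgeR adjusted p = 0.0112), though not without Con A + MSC 6 h replicate 1 (adjusted p = 0.0543).

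Hc measured 631, 549 and 512 CPM at Con A 6 h and 364, 296 and 298 at Con A 12 h. Among livers with MSC there were 774, 521 and 587 CPM at 6 h and 386, 373 and 532 at 12 h. It fell by 0.82 on the log2 scale without MSC (SE 0.20, edgeR adjusted p = 0.0051) and by 0.54 with MSC (SE 0.20, adjusted p = 0.0464), where the groups overlapped. C9, the subunit that forms the ring of the pore, measured 504, 283 and 374 CPM at Con A 6 h and 156, 248 and 231 at Con A 12 h. With MSC it measured 678, 381 and 480 CPM at 6 h and 237, 218 and 395 at 12 h. Its falls of 0.87 without MSC and 0.86 with MSC passed (edgeR adjusted p = 0.03 and 0.038) but were lost without 5 of 6 and 4 of 6 single libraries. C8g, the small gamma chain, measured 240, 148 and 208 CPM at Con A 6 h and 136, 147 and 157 at Con A 12 h. In the MSC groups the values were 185, 192 and 213 CPM at 6 h and 132, 118 and 138 at 12 h. Its fall passed with MSC (-0.60, edgeR adjusted p = 0.0156), though not without replicate 3 of Con A + MSC 6 h or without replicate 2 of Con A + MSC 12 h.

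The contact and kinin genes fell 4 of 4 with time without MSC, beside 24.8% of all genes tested. With MSC 3 of 4 fell, beside 20.2%, and these 3 calls were lost under scaling by total counts. Klkb1 encodes prekallikrein, whose active form releases bradykinin from kininogen. It measured 104, 57.6 and 83.8 CPM at Con A 6 h and 17.4, 21.8 and 19.6 at Con A 12 h. The values with MSC were 92.5, 110 and 119 CPM at 6 h and 55.6, 34.5 and 72.3 at 12 h. The 3 libraries of Con A 12 h lay below all others, and those of Con A + MSC 12 h between them and the 6 h libraries of the same treatment. The change with time was -2.06 (SE 0.27, edgeR adjusted p = 9.18e-05) without MSC and -0.98 (SE 0.26, adjusted p = 0.00984) with MSC. The difference with MSC at 12 h was 1.47 (SE 0.27, edgeR adjusted p = 0.0157). A predicted gene on the same strand (Gm45753) covers 43.2% of the exon bases of Klkb1 and held 0 to 2 counts, so the split of reads between them is uncertain.

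F11, which lies 4.66 kb from Klkb1 on chromosome 8 (GRCm38) and encodes the related protease factor XI, measured 125, 104 and 77.8 CPM at Con A 6 h and 74.4, 69.8 and 67.7 at Con A 12 h. Livers given MSC had 63.7, 64.8 and 73.3 CPM at 6 h and 96.2, 74.8 and 96.8 at 12 h. The MSC libraries lay below the others at 6 h and above them at 12 h, without passing at either time (-0.61, SE 0.18, edgeR adjusted p = 0.202, and 0.34, SE 0.18, adjusted p = 0.284). F11 fell with time without MSC (-0.54, edgeR adjusted p = 0.0243), a call lost without each of 4 single libraries (replicates 1 and 2 of Con A 6 h, replicates 2 and 3 of Con A 12 h). F12, the protease that starts contact activation, fell by 0.50 and 0.46 on the log2 scale without and with MSC (edgeR adjusted p = 0.019 and 0.0326), and kininogen (Kng1) by 0.58 and 0.48 (adjusted p = 0.0171 and 0.0466). Scaled by total counts, the changes of F12 and Kng1 with MSC turned to 0.08 and 0.06.

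The 5 clotting factors F2, F5, F7, F9 and F10 fell with time without MSC, and F2, F5 and F9 also with MSC. Beside them, 24.8% of all genes tested were called lower without MSC and 20.2% with MSC. F5, the cofactor with which factor Xa makes thrombin, measured 380, 263 and 295 CPM at Con A 6 h and 98.6, 105 and 93.6 at Con A 12 h. Its level with MSC was 442, 342 and 373 CPM at 6 h and 124, 165 and 209 at 12 h. Its 12 h libraries lay below the 6 h ones with and without MSC (-1.22, SE 0.21, edgeR adjusted p = 0.000652, and -1.66, SE 0.21, adjusted p = 7.23e-05). F5 was the one member called lower with MSC over time under both TMM and total-count scaling. At 12 h the libraries with MSC lay above those without (0.74, SE 0.21, edgeR adjusted p = 0.0629), which did not pass. F2 (prothrombin) measured 1780, 1411 and 1534 CPM at Con A 6 h and 988, 829 and 641 at Con A 12 h. Among livers with MSC there were 1507, 1396 and 1434 CPM at 6 h and 780, 989 and 1111 at 12 h. Prothrombin fell by 0.94 on the log2 scale without MSC (SE 0.20, edgeR adjusted p = 0.00234) and by 0.59 with MSC (SE 0.20, adjusted p = 0.0338). The latter call was lost without each of 5 of 6 single libraries. F7, which tissue factor binds to start clotting, measured 55.2, 46.6 and 47.9 CPM at Con A 6 h and 46.7, 29.1 and 22.1 at Con A 12 h. With MSC it measured 40.2, 35.3 and 40.1 CPM at 6 h and 41.9, 39.2 and 48.7 at 12 h. The groups at 6 h and 12 h without MSC overlapped in F7 (-0.61, SE 0.22, edgeR adjusted p = 0.038), and the call was lost without each of 4 single libraries (replicates 1 and 3 of Con A 6 h, replicates 2 and 3 of Con A 12 h). F9 fell by 0.63 and 0.45 without and with MSC (edgeR adjusted p = 0.0061 and 0.0386), the latter turning to 0.09 under total-count scaling, and F10 by 0.53 without MSC (adjusted p = 0.0324).

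**Figure D2:**
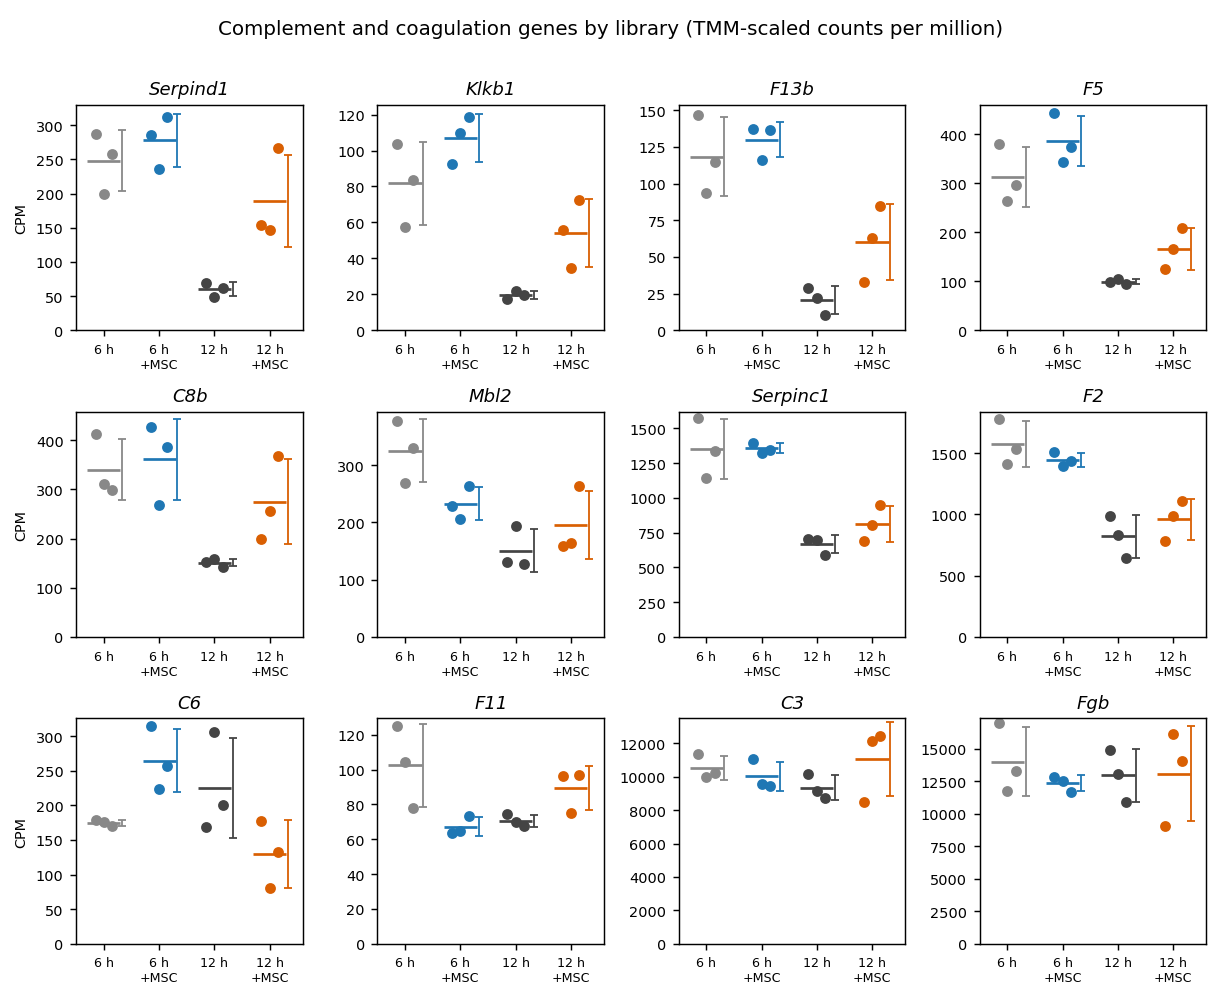
TMM-scaled CPM (linear axes from 0) of 12 genes of the group in each library of the 4 groups; points are libraries, horizontal lines group means and vertical bars ± SD (n = 3). Serpind1, Klkb1 and F13b are lowest in the 3 libraries at 12 h without MSC, F11 lies lower with MSC at 6 h and higher at 12 h, and C3 and Fgb overlap across the groups.

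The 3 fibrinogen chains, neighbours on chromosome 3, did not pass in any comparison. Fga measured 18914, 14915 and 16758 CPM at Con A 6 h, 17350, 18739 and 14125 at Con A 12 h, 15942, 16289 and 14918 at Con A + MSC 6 h and 10154, 22699 and 16143 at Con A + MSC 12 h. Fgb measured 16960, 11780 and 13328 CPM at Con A 6 h, 14884, 13104 and 10880 at Con A 12 h, 12872, 12562 and 11688 at Con A + MSC 6 h and 9089, 16181 and 14042 at Con A + MSC 12 h. Fgg measured 13884, 9874 and 12474 CPM at Con A 6 h, 13920, 13092 and 10556 at Con A 12 h, 11987, 12104 and 10987 at Con A + MSC 6 h and 6371, 11781 and 9068 at Con A + MSC 12 h. Replicate 1 of Con A + MSC 12 h had the lowest value of the 12 for each chain, and replicate 2 of that group had the highest Fga, so the widest spread lies within a group. For time without MSC the 95% confidence intervals of the log2 change were -0.65 to 0.63 (Fga), -0.71 to 0.48 (Fgb) and -0.53 to 0.64 (Fgg), which do not show that the levels stayed alike.

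F13b encodes the carrier subunit of factor XIII, which crosslinks fibrin. It measured 147, 93.9 and 115 CPM at Con A 6 h and 29.1, 21.9 and 10.5 at Con A 12 h. In the MSC groups the values were 137, 116 and 136 CPM at 6 h and 32.9, 62.9 and 84.7 at 12 h. The 12 h libraries without MSC lay below all others, and the lowest library with MSC at 12 h was close above them. The change with time was -2.53 (SE 0.38, edgeR adjusted p = 0.000221) without MSC, the largest of the group, and -1.11 (SE 0.36, adjusted p = 0.027) with MSC. The difference with MSC at 12 h was 1.55 (SE 0.37, edgeR adjusted p = 0.0375). Within the 12 h groups F13b also had the largest spread of the 36 genes (SD of log2 CPM 0.76 without and 0.70 with MSC).

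Of the anticoagulants, antithrombin (Serpinc1) and heparin cofactor II (Serpind1) fell with time without MSC and Serpinc1 also with MSC, while protein C (Proc), its cofactor protein S (Pros1) and the protein Z-dependent inhibitor Serpina10 passed in no comparison. Serpind1, which inhibits thrombin, measured 287, 200 and 258 CPM at Con A 6 h and 68.9, 48.9 and 61.3 at Con A 12 h. The values with MSC were 285, 236 and 312 CPM at 6 h and 154, 146 and 267 at 12 h. The 3 libraries at 12 h without MSC were lower than the 9 others, and the times with MSC overlapped. Its change with time was -2.06 (SE 0.25, edgeR adjusted p = 5.66e-05) without MSC and -0.55 (SE 0.24, adjusted p = 0.0839) with MSC. The difference with MSC at 12 h was 1.66 (SE 0.25, edgeR adjusted p = 0.00734). Serpinc1, an inhibitor of thrombin and factor Xa, measured 1571, 1143 and 1337 CPM at Con A 6 h and 704, 700 and 590 at Con A 12 h. Livers given MSC had 1396, 1325 and 1346 CPM at 6 h and 690, 804 and 946 at 12 h. It fell in both (-1.02, SE 0.18, edgeR adjusted p = 0.000706, and -0.74, SE 0.18, adjusted p = 0.0066), with the 12 h libraries apart from the 6 h ones. Its exons share 34.4% of bases with Zbtb37 on the opposite strand, which held 81 to 592 counts.

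Proc measured 350, 242 and 273 CPM at Con A 6 h and 190, 226 and 244 at Con A 12 h. Its level with MSC was 280, 256 and 271 CPM at 6 h and 237, 174 and 218 at 12 h. Its log2 changes with time were -0.39 without and -0.36 with MSC (edgeR adjusted p = 0.0861 and 0.124). Pros1 ranged from 31.0 to 70.5 CPM and Serpina10 from 566 to 959 over the 12 libraries. Of the fibrinolysis genes, plasminogen (Plg) fell with time without MSC. Plg measured 2086, 1718 and 1680 CPM at Con A 6 h and 1216, 1157 and 1070 at Con A 12 h. Among livers with MSC there were 1858, 1704 and 1780 CPM at 6 h and 1142, 1426 and 1663 at 12 h. The 12 h libraries lay below the 6 h ones in both treatments, and the change passed without MSC (-0.67, SE 0.18, edgeR adjusted p = 0.00926) and not with MSC (-0.34, SE 0.18, adjusted p = 0.159). Cpb2, the carboxypeptidase that protects fibrin from plasmin, ranged from 774 to 1072 CPM and the plasmin inhibitor Serpinf2 from 536 to 951, and neither passed.

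Over the whole group the median log2 change with time was -0.56 without MSC (0.02 over all genes tested) and -0.33 with MSC (0.06 over all genes tested, and 0.20 for the group under total-count scaling, where all genes moved with it). With MSC 12 of the 36 genes fell and none rose, which is 33.3% beside 20.2% of all genes tested called lower, 20.6% called higher and 40.7% called in either direction. Scaled by total counts the same comparison called 1 lower (F5, beside 8.6% of all genes tested) and 4 higher (Mbl1, C3, F11 and Cpb2, beside 40.5%), so the direction of the group with MSC depends on the scaling. Without MSC total-count scaling called 9 lower (Mbl2, C2, C8b, Klkb1, F2, F5, F13b, Serpinc1 and Serpind1), beside 16.5% of all genes tested, and none higher. Relative to the median of all genes, the median of the group was -0.57 under TMM and -0.56 under total counts without MSC, and -0.39 under both with MSC. Between the treatments, 10 genes were called lower in both (Hc, C9, F12, Klkb1, Kng1, F2, F5, F9, F13b and Serpinc1), 12 in neither, 12 without MSC alone and C6 and C8g with MSC alone. Whether a change with time differed between the treatments is the difference of the MSC effect, given below. Leaving out each library in turn, 15 of the 22 calls without MSC held each time, and 3 of the 12 with MSC (Klkb1, F5 and Serpinc1). The calls of C4b, C9, F11, F12, Kng1, F7 and F10 without MSC were each lost without Con A 6 h replicate 1, among other libraries. The calls of Hc, C6, C9, F12, Kng1, F2, F9 and F13b with MSC were lost without Con A + MSC 6 h replicate 1. Of these, Kng1 and F9 lost the call without each of the 6 libraries, and F12 and F2 without each of 5 of 6. With MSC the count fell to 4 without replicate 1 or 3 of Con A + MSC 6 h or replicate 2 of Con A + MSC 12 h. Beside it, 2204 of 14605, 2298 of 14620 and 2306 of 14508 genes tested were called lower. It fell to 5 without replicate 1 of Con A + MSC 12 h, beside 2396 of 14548. In these settings the share of the group called lower was not above that of all genes tested.

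**Figure D3:**
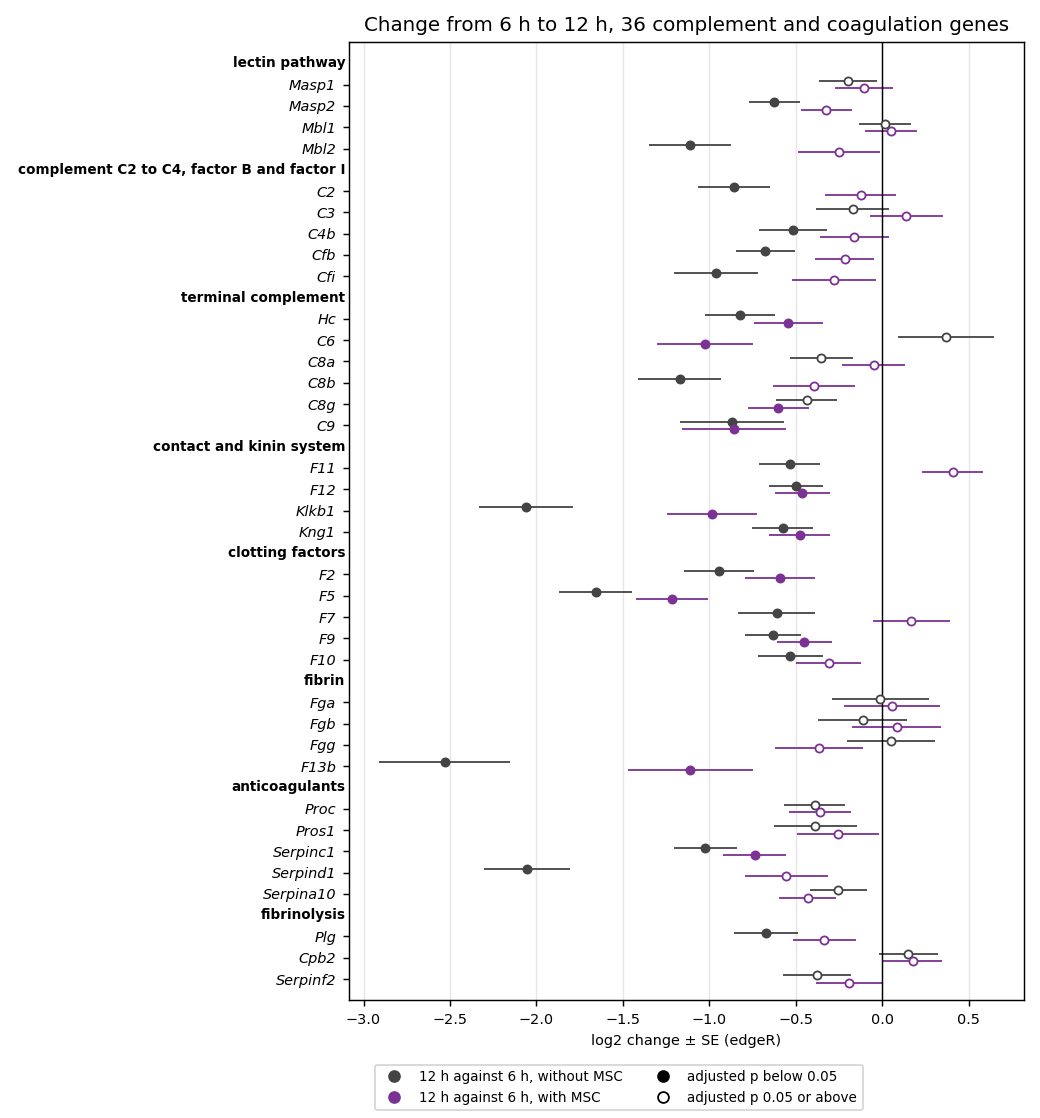
Fitted log2 change from 6 h to 12 h (± SE, edgeR, TMM scaling) of the 36 genes by role, without MSC (grey) and with MSC (purple); filled points have an adjusted p below 0.05. Without MSC 22 points are filled and all lie below 0; with MSC 12 are filled below 0, of which F5 was also called lower under total-count scaling.

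The question of the MSC treatment was addressed within each time. At 6 h none of the 36 genes was called with edgeR (0.0981% of all genes tested were) or with DESeq2 (1.98% of all). An unadjusted p below 0.05 was found for 2 of 36, beside 1561 of all 14275 genes tested. The 3 smallest p belonged to F11 (-0.61), C6 (0.60) and Mbl2 (-0.48, SE 0.24, edgeR adjusted p = 0.49), whose libraries did not overlap between the groups. Such separation at 6 h was found for 2 of the 36 genes upward and 4 downward, beside 1174 and 1191 of all 14275 genes tested. Nothing particular to the group is read from these counts. The median log2 change of the group at 6 h was -0.02, beside -0.01 over all genes. At 12 h 28 of the 36 log2 changes were above 0, and the median was 0.25 beside 0.00 over all genes (0.52 beside 0.26 under total-count scaling). The libraries with MSC lay above those without in 11 of 36 genes (30.6%, beside 13.3% of all genes tested) and below them in 0 (beside 13.1%).

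The calls at 12 h rested on few libraries. Leaving out each in turn gave 1 to 5 genes called higher, beside 37 to 572 of all genes tested. It gave 0 or 1 called lower, beside 29 to 495 of all genes tested. Serpind1 kept its call each time, Klkb1 lost it without replicate 2 of Con A 12 h and without replicate 3 of Con A + MSC 12 h (highest edgeR adjusted p = 0.0703), and F13b without each of 4 libraries (replicates 2 and 3 of both 12 h groups, highest adjusted p = 0.152). Without Con A + MSC 12 h replicate 1 the count was 5 higher, with C8b and F5 added, and 1 lower (C6), beside 572 and 489 of all genes tested. With the mitochondrial share as a covariate none passed in edgeR, beside 59 of all genes tested called higher. The log2 differences were then 1.54 for Serpind1 (edgeR adjusted p = 0.0523), 1.54 for Klkb1 (adjusted p = 0.0695) and 0.98 for F13b (adjusted p = 0.199). Without both Con A 12 h libraries of high mitochondrial share, which leaves 1 library in that group, the differences were 1.45, 1.64 and 1.04. DESeq2 called 5 genes higher (5.33% of all genes it tested), adding C8b (0.86, adjusted p = 0.0124) and F5 (0.74, adjusted p = 0.0141) to the same 3. Total-count scaling in edgeR called those 5 higher as well (5.14% of all genes tested).

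**Figure D4:**
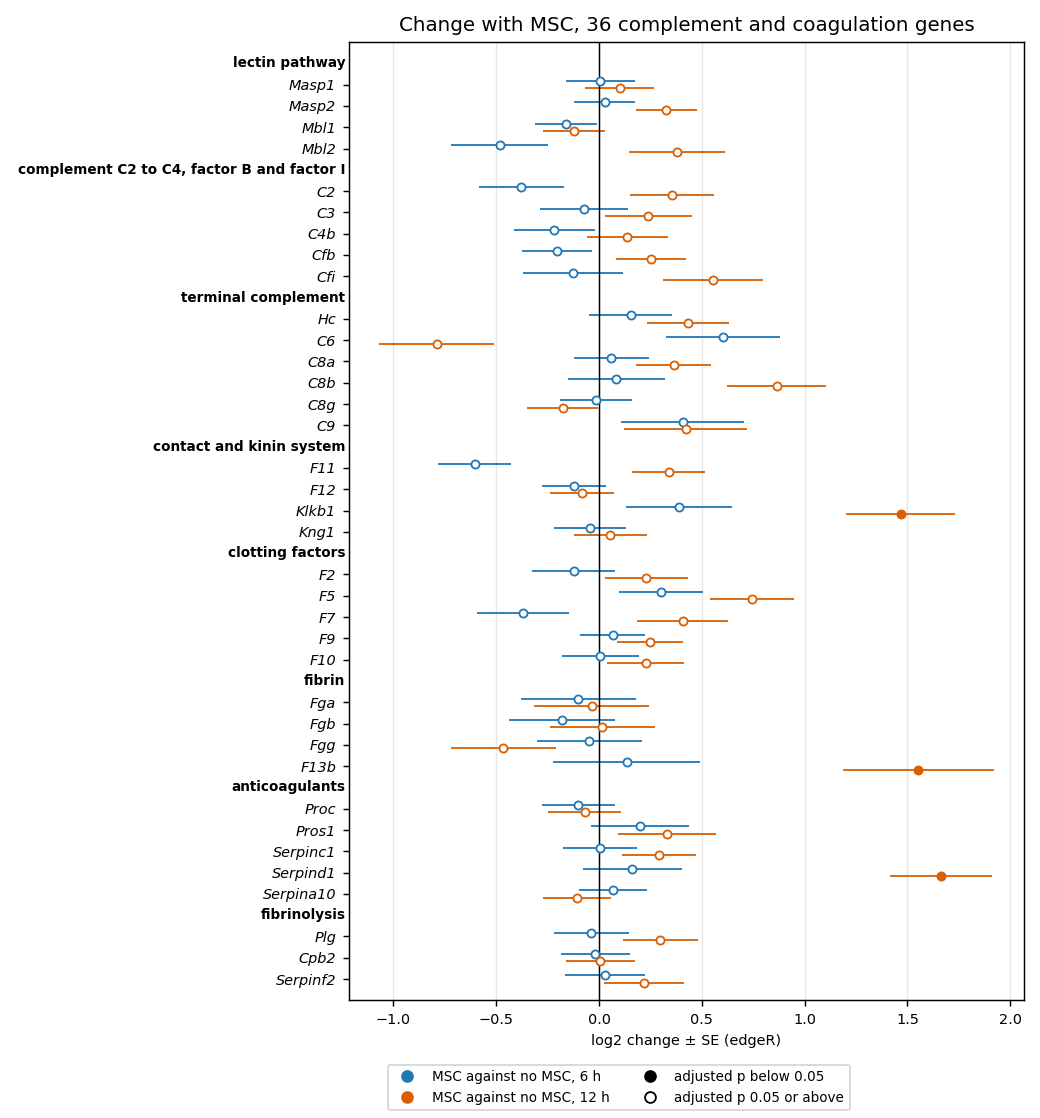
Fitted log2 difference between livers with and without MSC (± SE, edgeR, TMM scaling) of the 36 genes by role, at 6 h (blue) and 12 h (orange); filled points have an adjusted p below 0.05. No point is filled at 6 h; at 12 h Klkb1, F13b and Serpind1 are filled, between 1.47 and 1.66, and the other orange points are open.

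The MSC effect was also compared between the times. With edgeR none of the 36 differences passed (0.126% of all genes tested were called), and 9 had an unadjusted p below 0.05, beside 2401 of all 14275. DESeq2 called Serpind1 and F11 higher (2.93% of all) and C6 lower (1.53%), at adjusted p = 0.00403, 0.022 and 0.022. Total-count scaling in edgeR called Serpind1 higher (1.31%). The 3 smallest p in edgeR were those of Serpind1 (1.50, SE 0.34, adjusted p = 0.0805), F11 (0.94, SE 0.25, adjusted p = 0.103) and C6 (-1.39, SE 0.39, adjusted p = 0.115). The 95% confidence interval for Serpind1 was 0.71 to 2.29. The 3 libraries of each group serve in more than 1 of these comparisons, so the time changes and the MSC differences are not independent of each other.

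Some of the genes are neighbours in the genome (GENCODE M21, GRCm38). Klkb1 and F11, 4.66 kb apart on the same strand, had time changes without MSC of -2.06 and -0.54, with 95% intervals of -2.68 to -1.44 and -0.94 to -0.13. C8b and C8a, 11.1 kb apart on opposite strands, had -1.17 and -0.35, with overlapping intervals. F7 and F10, 1.50 kb apart, had -0.61 and -0.53, and Cfb and C2, 0.085 kb apart, had -0.68 and -0.86.

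Other genes of the same systems were taken from 3 lists of their inhibitors, receptors and factors that are not in the group. Tissue factor (F3), the trigger of clotting, measured 63.8, 14.9 and 80.6 CPM at Con A 6 h and 1.02, 1.31 and 1.48 at Con A 12 h. In the MSC groups the values were 47.3, 24.6 and 49.1 CPM at 6 h and 1.02, 2.65 and 2.06 at 12 h. It fell by 5.39 and 4.39 on the log2 scale with time (edgeR adjusted p = 3.33e-05 and 0.000101), and the urokinase receptor Plaur by 3.37 and 2.76 (adjusted p = 1.24e-05 and 4.41e-05).

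**Figure D5:**
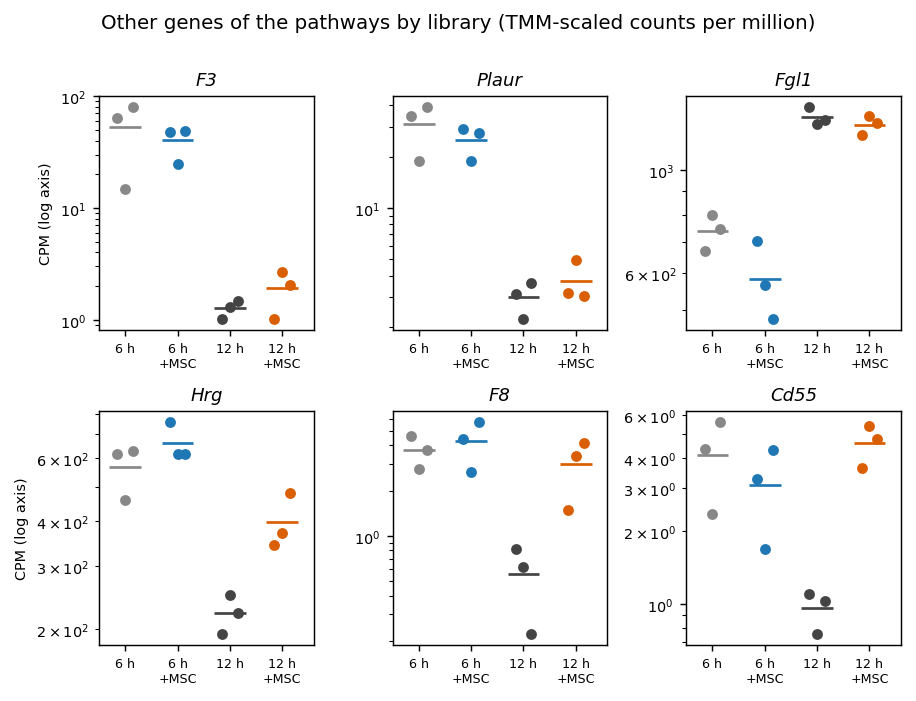
TMM-scaled CPM (log axes) of 6 other genes of the clotting and complement systems in each library; points are libraries and lines group means (n = 3). F3 and Plaur are lower at 12 h, Fgl1 is higher at 12 h, and Hrg, F8 and Cd55 are lowest at 12 h without MSC.

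With MSC at 12 h, 2 of 27 other complement genes tested, 2 of 21 other clotting genes and 1 of 12 other fibrinolysis genes were higher, beside 2.29% of all genes tested. The higher ones were Cd55 (2.25, edgeR adjusted p = 0.0142), which shields cells from complement, and C1qb (1.63, adjusted p = 0.0479), a chain of C1q. Beside them were F8 (2.41, edgeR adjusted p = 0.0242), the cofactor of factor IX, the thrombin receptor F2r (1.01, adjusted p = 0.0417) and the histidine-rich glycoprotein Hrg (0.85, adjusted p = 0.0341). Hrg measured 194, 248 and 222 CPM at Con A 12 h and 343, 372 and 480 at Con A + MSC 12 h. F8 and Cd55 are scarce, at 0.222 to 0.817 and 0.754 to 1.10 CPM at Con A 12 h and 1.49 to 4.13 and 3.62 to 5.41 with MSC. These 5 calls were lost under 4 (Cd55) to 10 (C1qb) of 14 alternative settings. Thbd (1.41, adjusted p = 0.162), Plat (1.52, adjusted p = 0.197), Serping1 (0.33, adjusted p = 0.357), C4bp (0.33, adjusted p = 0.327), F13a1 (0.85, adjusted p = 0.379) and Vtn (-0.31, adjusted p = 0.337) did not pass in edgeR. Markers of other liver cells moved in the same direction: 6 of 10 sinusoidal, 3 of 7 Kupffer and 4 of 8 stellate cell markers were higher with MSC at 12 h. Their sums at 12 h were 37.6 to 53.4 CPM without and 102 to 135 CPM with MSC for sinusoidal endothelium, 4.00 to 11.9 and 28.8 to 63.9 for Kupffer cells, and 80.9 to 115 and 164 to 236 for stellate cells. No marker of these 3 lists was at 0 in a whole group, and the part of these cells in the changes of C1qb, F8 and the other genes was not tested.

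With time without MSC, 15 of 27 other complement genes (55.6%) fell, beside 24.8% of all genes tested, and 0 rose. With MSC 6 of the 27 (22.2%) fell, near the 20.2% of all genes tested, and 0 rose. In the edgeR test of the difference between these time changes 0 of the 27 passed, and 9 had an unadjusted p below 0.05, beside 2401 of all 14275 genes tested. The collectins Colec10 (-3.19, edgeR adjusted p = 1.24e-05) and Colec11 (-2.85, adjusted p = 0.000183) and the ficolin Fcna (-2.24, adjusted p = 0.000382), soluble lectins that start the same pathway as Mbl2, had the smallest p of the list. Of 21 other clotting genes 9 fell and 5 rose without MSC, beside 24.8% and 24.4% of all genes tested. Fgl1, a fibrinogen-like protein of hepatocytes, rose by 0.82 without (edgeR adjusted p = 0.00219) and 1.10 with MSC (adjusted p = 0.000409). Mcfd2, part of the receptor that carries factors V and VIII out of the endoplasmic reticulum, rose by 0.96 and 0.82 (edgeR adjusted p = 0.00264 and 0.00839), while F5 fell. The 12 genes of acute-phase signalling, which include Il6, Il1b, Stat3, Cebpb and Cebpd, fell 12 of 12 with time in both treatments, beside 24.8% of all genes tested without MSC and 20.2% with MSC. Cebpb and Cebpd, factors that bind acute-phase promoters, were also lower with MSC at 12 h. Cebpb measured 94.0 ± 21.6 CPM with and 188 ± 43.2 without MSC (SD, n = 3, edgeR adjusted p = 0.0237), and Cebpd changed by -0.93 (edgeR adjusted p = 0.0337).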

How the data were processed

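RNA of mouse liver was measured in 12 libraries, placed in 4 groups of 3 by the labels. The deposited tables hold raw whole-number counts per gene, made by the authors; per the submitters' processing notes the tools were HISAT2 2.0.4, Bowtie2 2.2.5 and StringTie 2.1.2 with the assembly GRCm39. The sources used here do not give the counting program, the annotation or the strandedness. Lengths, neighbours and overlaps come from GENCODE M21 (GRCm38), promoter windows from RefSeq (GRCm38.p6).

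The counts were fitted with edgeR 4.0.16 in R 4.3.3 (filterByExpr by group, TMM scaling, all 12 libraries with a mean for each of 4 groups, 8 residual degrees of freedom). The quasi-likelihood test (glmQLFit, glmQLFTest, two-sided) was run for 5 comparisons: livers with against without MSC at each time, 12 h against 6 h in each treatment, and the change of the MSC effect from 6 h to 12 h. Benjamini-Hochberg adjustment of the p-values ran over the 14275 of 23574 entries tested, and adjusted values below 0.05 were called, whatever the fold. The SE was taken from the F statistic, as the log2 change over its root. The procedure was tested on simulated data.

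Alternatives were DESeq2 1.42.0 size factors and its Wald test, total-count scaling, no filter, the replicate number as a block, the mitochondrial share as a covariate, the groups compared alone, and each library left out. Library totals of 29688137 to 36131512 counts set the depth; 3 counts are 0.0657 to 0.119 CPM, and these floors cover counting error only. No libraries of a group agreed within counting noise (chi-square per degree of freedom 43.2 to 527).

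The 36 genes and the lists were chosen with earlier results of these data known. Described with the value of each library are the members that passed with groups apart (at most 8 in each direction for MSC, 6 for time), the 3 smallest p where fewer than 3 passed, and a panel of 15 members. Of the other lists, the genes with the 4 smallest adjusted p and 10 set genes were candidates for naming. Some of these genes are not reported here.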

Additional observations from a re-analysis of the deposited data

How the results depend on the processing

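For MSC at 12 h (3 genes higher, 0 lower) the count of genes called higher was 5 under total-count scaling, where the median of the group was 0.52, and 5 with DESeq2, 1 with only the groups compared, 0 with the mitochondrial share as a covariate and 0 without both Con A 12 h libraries of high mitochondrial share (chosen after seeing the data), with 1 to 5 higher and 0 to 1 lower over the single libraries left out. For time without MSC (22 lower) the count called lower was 9 under total-count scaling (median -0.28), beside 2354 of all genes tested. Without single libraries it was 15 to 21, beside 2791 to 3362 of all genes tested. Without both libraries of high mitochondrial share the median of the group was -0.56. For time with MSC (12 lower) it was 1 lower and 4 higher under total-count scaling (median 0.20), beside 1228 and 5780 of all genes tested. With no filter on low counts 7 were lower, beside 2639 of 18633. With only the groups compared 11 were lower and 1 higher, beside 3155 and 3281 of 13739. Without single libraries 4 to 12 were lower, beside 2204 to 2500 of all genes tested. There F12 (0.0756), Kng1 (0.0624), F9 (0.0875), Vtn (0.52) and Cebpa (0.10) turned above 0 under total-count scaling. For the difference of the MSC effect (0 called) 1 was called higher under total-count scaling, beside 187 of all genes tested. DESeq2 called 2 higher and 1 lower, beside 430 and 224. Without single libraries 0 to 1 were higher, beside 0 to 95 of all genes tested. The summed level of the group (CPM, group means) was 67637 at Con A + MSC 6 h, 58739 under total-count scaling; 63456 at Con A 12 h, 79236 as CPM of the non-mitochondrial counts; and 63266 at Con A + MSC 12 h, 79817 and 86325 on those scales. DESeq2 size factors in edgeR changed no count of called members. The causes of these shifts were not tested.

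With the replicate number as a block, 0 and 2 genes were higher for MSC at 6 h and 12 h, beside 2 and 180 of all genes tested. The counts were 20 lower for time without MSC, 7 lower with MSC, and 0 for the difference of effects. Beside them, 3359, 2638 and 15 of all genes tested were called, the last in either direction. Correlations of same-numbered libraries ran from -0.32 to 0.19. They show no clear pairing by number, and with 3 libraries a group they cannot exclude one.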

Other observations

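The ratio of Fgg to Fgb, per length, was noticed after the values had been seen. It was 1.28, 1.33 and 1.18 in the Con A + MSC 12 h libraries, 1.70, 1.82 and 1.77 at Con A 12 h, 1.49, 1.53 and 1.70 at Con A 6 h and 1.70, 1.75 and 1.71 at Con A + MSC 6 h. The 3 libraries with MSC at 12 h lay below the other 9. The means at 12 h were 1.26 ± 0.08 (SD, n = 3) with MSC and 1.76 ± 0.06 without. The difference was picked from these same values, and an exact permutation test of 3 against 3 cannot go below p = 0.1, so it is given as a description with no test. The ratio of Fga to Fgb ran from 1.41 to 1.78 with MSC at 12 h and from 1.41 to 1.81 elsewhere. A ratio within a library does not depend on the scaling, and none of the 3 chains passed the test in any comparison.

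Of 13 hepatocyte transcription factors tested, 3 rose and 4 fell with time without MSC, beside 24.4% and 24.8% of all genes tested. With MSC 4 rose and 5 fell, beside 20.6% and 20.2% of all genes tested. Nothing particular to these factors is read from the counts. Foxa1 rose by 1.43 without and 0.93 with MSC (edgeR adjusted p = 9.86e-05 and 0.00186). Foxa3 was lower with MSC at 12 h (-0.76, edgeR adjusted p = 0.0265).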
